A study of Homo sapiens with 6 samples.

Results

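The genes examined were those encoded in the nucleus for the subunits of the respiratory chain, complexes I to V. They were taken by symbol from 6 count tables: NDUFA, NDUFAB, NDUFB, NDUFC, NDUFS or NDUFV followed by a number, SDHA to SDHD, and every symbol that begins with UQCR, COX4 to COX8 or ATP5, leaving out pseudogene and antisense names. This gave 87 of 56832 rows, with 37 rows for complex I, 4 for complex II, 9 for complex III, 18 for complex IV and 16 for complex V, and 3 that match by name without being a subunit. NDUFA4 was placed with complex IV, where its protein is now assigned. Poly(A) RNA was measured in HEK293T, a human embryonic kidney line, with GLO1 knocked out in every sample. GLO1 encodes glyoxalase 1, the enzyme that begins the detoxification of methylglyoxal (MGO), a reactive by-product of glycolysis. The MGO cells were kept overnight in medium with 0.2 mM MGO (3 libraries, numbered 1, 3 and 4), and the others were untreated (3 libraries, numbered 1, 2 and 4). The labels do not say whether the line is 1 clone or whether each library had its own culture. The p-values therefore reflect the spread among these 6 libraries and no more, and that spread may be technical.

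The respiratory chain sits in the inner mitochondrial membrane. Complexes I and II pass electrons from NADH and succinate to ubiquinone, complex III passes them on to cytochrome c, and complex IV hands them to oxygen. Complexes I, III and IV pump protons, and complex V, the ATP synthase, uses the returning protons to make ATP. Most subunits are made from nuclear genes and are imported, and a small set is encoded in mitochondrial DNA, so the mRNAs described here have to be matched by products of both genomes.

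Levels are given as CPM, which are counts scaled to a common total per library, after TMM scaling, which corrects for differences in library composition. In the lists of values below, the MGO libraries are always in the order 1, 3, 4 and the untreated libraries in the order 1, 2, 4. A gene is said to have risen or fallen where its adjusted p in edgeR's quasi-likelihood test, fitted over 17415 genes with 3 libraries per group, was under 0.05. Totals were 19195920 to 21544749 counts in MGO and 41002134 to 45910040 counts in untreated libraries, so depth was split as treatment was, and at an equal level MGO values rest on fewer reads. GLO1 itself was read in every library, at 140.4 ± 5.30 CPM in MGO and 48.1 ± 2.57 CPM in untreated cells. Both groups carry the knockout, and a sum over the whole gene cannot check a small lesion in it. All 8 markers listed for HEK293 cells were detected, with a summed level of 1685 to 1708 CPM in MGO and 1487 to 1532 CPM in untreated libraries (3 rose and 5 fell). KRT8 was the largest part of the sum, at a mean of 824 CPM in MGO and 525 CPM in untreated cells. The falls were 2-fold or more for 4 markers, PAX2 (log2 fold change -2.24), NEFL (-2.12), NEFM (-1.80) and CDH2 (-1.12). Of 8 markers of other cell types, 6 had at most 5 counts in any library, and HBB was at 0 in 5 of the 6. The other two, the collagen genes COL1A1 and COL3A1, were lower in MGO, and the list summed to 11.3 to 12.8 CPM in MGO and 22.8 to 24.2 CPM in untreated libraries. The part of these marker changes in the results was not tested. In bulk RNA, fewer cells of a type and less RNA per cell cannot be told apart.

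The summed level of the chain in MGO was 0.939 times that in untreated cells, and many of its single genes passed the test in both directions. Of the 80 genes with enough counts to test, 29 rose and 34 fell with MGO, and 17 did not pass. Of these 80, called chain genes below, 78 encode subunits, and ATP5S and ATP5SL match by name only. The 29 include COX7A1, which reached the filter on low counts only in the MGO libraries. It is also in the counts of rises below that draw on these 29. Among all 17415 genes tested, 83.1% passed, 41.8% higher and 41.2% lower, so the 78.8% of chain genes that passed was near the background. The changes were small beside those of all genes tested, since 65 of 80 chain genes (81.2%) lay within 1.5-fold of the untreated level, against 43.0%. The 2 sets were not matched for level. At 1 CPM or more in every library, 76 chain genes remained, and 12790 of the 17415 genes. The part of level in this difference was not tested. A change of 2-fold or more was called in 5 chain genes that rose, COX7A1 among them, and 2 that fell. ATP5S, which is no subunit, is among those that fell. All genes gave 19.8% higher and 16.7% lower. The median log2 fold change was -0.04 over the chain genes and 0.01 over all genes. All 3 MGO libraries lay above all 3 untreated libraries for 26 chain genes, COX7A1 among them, and below them for 31. The groups overlapped for 23, while 83.5% of all genes did not overlap (41.8% above and 41.7% below). The counts summed over the 87 rows came to 10392, 9727 and 9329 CPM in the MGO libraries, against 10513, 10385 and 10470 CPM in the untreated libraries (mean 9816 ± 537 CPM in MGO and 10456 ± 65.2 CPM in untreated libraries, SD, n = 3 each).

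The balance of rises and falls depends on the scaling and on the filter on low counts. Rises made up 46.0% of the calls under TMM, 30.8% (20 higher, 45 lower) when only library size was used and 23.1% (15 higher, 50 lower) with no filter on low counts. The last 2 alternatives moved the median of the genes tested here by -0.11 and -0.18 on the log2 scale. With no filter, 8 genes called under TMM with the filter changed sign. Other alternatives raised the share of rises, to an even split with upper quartile scaling or DESeq2 (30 higher and 30 lower in each), 50.9% (28 higher, 27 lower) at 1 CPM or more in every library and 52.6% (30 higher, 27 lower) after the untreated counts were thinned to the mean MGO total. The fit with no filter was also scaled by TMM. Changes smaller than these shifts have a direction only relative to the scaling and the filter used. Against a fold of 1.5 in place of no change, 7 genes were higher, COX7A1 among them, and 4 lower. Leaving out MGO library 1 gave 24 higher and 41 lower, 36.9% of the calls higher.

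**Figure D1:**
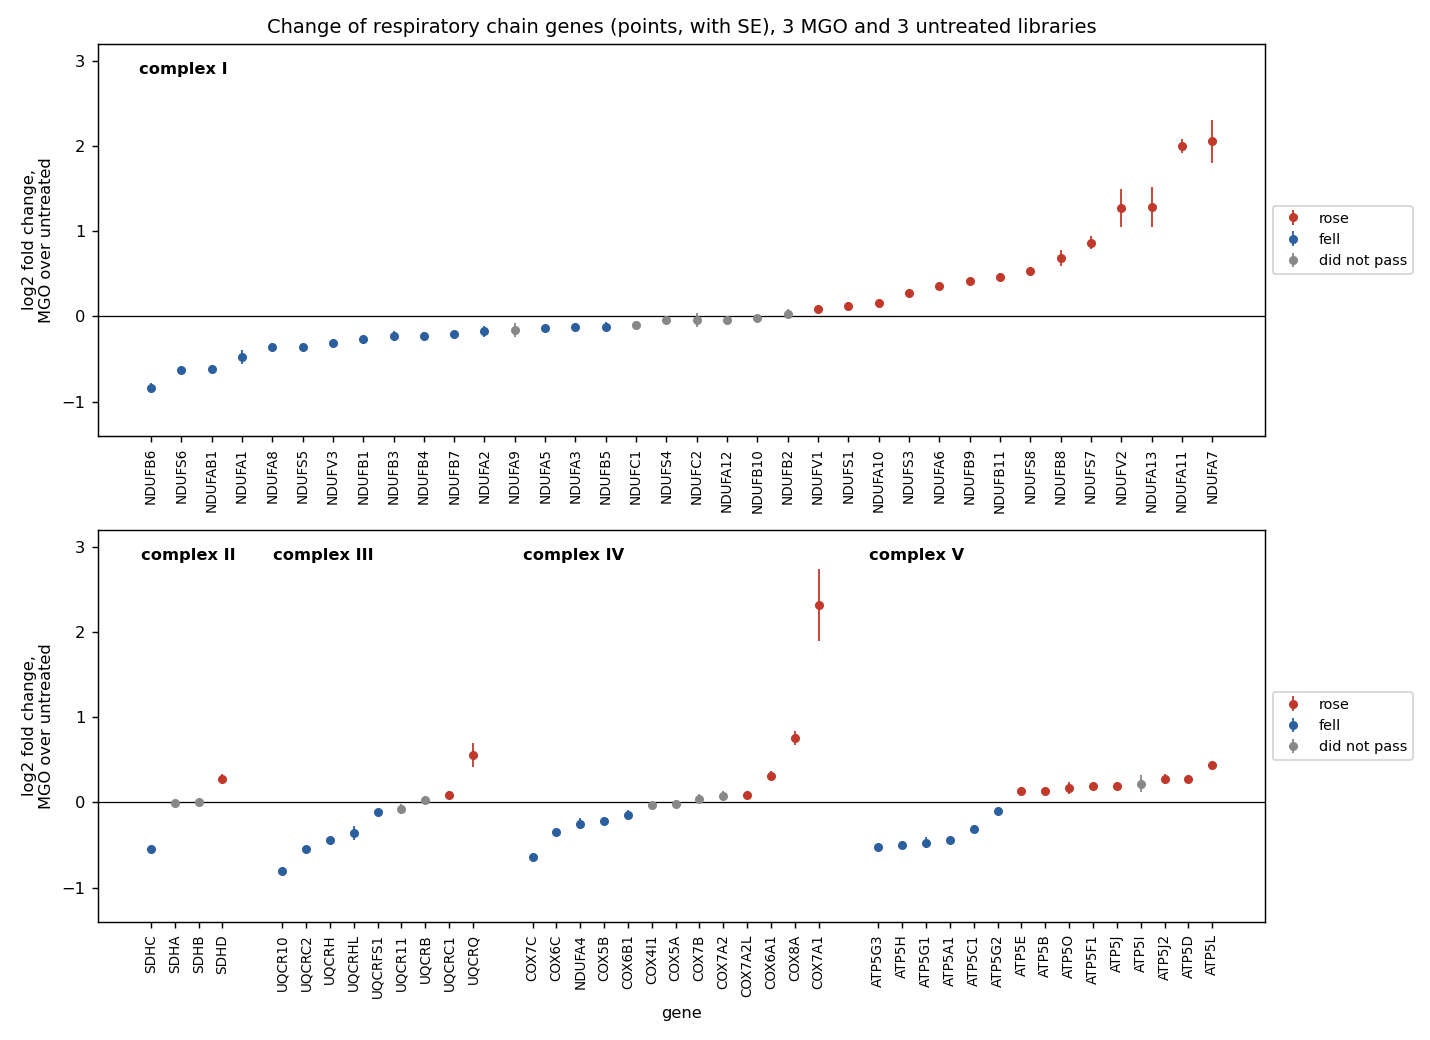
Log2 fold change, MGO over untreated, of 77 tested subunit genes, ordered within each complex; points are edgeR estimates, bars are SE, and colours mark genes that rose, fell or did not pass. Most points lie close to 0, with NDUFA7, NDUFA11 and COX7A1 (a description with no test) at or above 2.00.

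Each complex held genes that rose and genes that fell, as did all genes tested (41.8% higher and 41.2% lower). In complex I, 14 of 37 genes rose, 16 fell and 7 missed the threshold, and the median log2 fold change was -0.04. Complex II had 1 gene that rose, 1 that fell and 2 that did not pass (median 0.00). Complex III had 2 that rose, 5 that fell and 2 that did not pass (median -0.11), and its summed level was 1102 ± 45.7 CPM in MGO and 1265 ± 12.7 CPM in untreated cells, a ratio of 0.871. In complex IV 4 rose, COX7A1 among them, 5 fell and 4 did not pass (median -0.02). Complex V had 8 that rose, 6 that fell and 1 that did not pass (median 0.14). Without MGO library 1 these counts were 13 higher and 20 lower for complex I (median -0.15), 1 and 1 for complex II, 1 and 6 for complex III, 3 and 7 for complex IV, and 6 and 6 for complex V. With library size as the only scaling, complex V had 4 higher and 6 lower, and with no filter 1 higher and 6 lower at a median of -0.05.

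Sequence motifs of known regulators of chain genes were present in a larger share of chain promoters than of all promoters. Windows with the NRF1 motif are printed because genes that hold it went in both directions. A window with the YY1 motif is printed from a gene that rose. Of the 87 genes, 60 matched 1 RefSeq promoter (GRCh38.p14, from 250 bases before to 50 bases after the start), and each was searched on both strands. The motif of NRF1, an activator of chain genes, spelled GCGCA, any base N, GCGC, was present in 16 of the 60 (26.7%), against 5.75% of all 34796 promoters and 7.33% of the 21956 of protein-coding genes. Of the 16, 4 rose, 6 fell, 5 did not pass and COX8C was not tested. The motif CCGGAAG, bound by ETS factors such as GABPA, was in 17 (28.3%, against 10.2% of all and 12.8% of coding promoters), of which 7 rose, 6 fell and 4 did not pass. The motif AAGATGGCG of YY1, a zinc finger factor, was in 7 (11.7%, against 1.76% of all and 2.42% of coding promoters). All 7 matches lay 10 to 25 bases after the start, and 4 of these genes rose (NDUFA6, NDUFA7, NDUFS7 and UQCRC1) while NDUFA9, NDUFS4 and SDHB did not pass. Among these rises, NDUFA7 rests on few reads, and the levels of NDUFA7 and NDUFS7 are uncertain. UQCRC1 lost its call when any of 4 libraries was left out. A match is a stretch of letters and not a shown binding site, and the shares were not tested.

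The sequences below are from RefSeq, 5′ to 3′ on the strand of the gene, with the motif in capitals. UQCR10 and ATP5C1 fell, SDHD and NDUFA11 rose and NDUFA12 did not pass, and all hold the NRF1 motif, while NDUFS7 rose and holds that of YY1. They lie at chr22:29767351-29767380, plus strand (UQCR10), chr10:7788145-7788174, plus strand (ATP5C1), chr11:112086753-112086782, plus strand (SDHD), chr19:5903869-5903898, minus strand (NDUFA11), chr12:95003794-95003823, minus strand (NDUFA12) and chr19:1383914-1383942, plus strand (NDUFS7).
UQCR10: gtcggccccaGCGCAGGCGCggtggcgcga
ATP5C1: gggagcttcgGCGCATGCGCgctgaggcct
SDHD: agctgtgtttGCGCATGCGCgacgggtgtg
NDUFA11: ccggtccccgGCGCGTGCGCgcgatccatg
NDUFA12: acctagctctGCGCACGCGCagagccacca
NDUFS7: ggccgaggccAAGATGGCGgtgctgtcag
In NDUFA11 the motif reads in the reverse direction, and in ATP5C1 and SDHD the same 10 letters match in both directions.

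Among the complex I genes that fell, NDUFB6, an accessory subunit of the membrane arm (chr9:32552999-32573184, minus strand), had 41.002, 35 and 32.1 CPM in the MGO libraries, against 66.2, 62.9 and 63.7 CPM in the untreated libraries (log2 fold change -0.84, SE 0.060, adjusted p = 1.51e-11). NDUFS6, a zinc-binding subunit of the electron transfer arm (chr5:1801400-1816605, plus strand), had 109, 99.8 and 97.02 CPM in the MGO libraries, against 159.7, 157 and 158 CPM in the untreated libraries (log2 fold change -0.63, SE 0.042, adjusted p = 5.86e-15). For both genes the lowest untreated library was above the highest MGO library. NDUFAB1, the mitochondrial acyl carrier protein, which serves complex I as well as fatty acid and lipoate synthesis (chr16:23581002-23596356, minus strand), had 71.6, 64.8 and 64.1 CPM in the MGO libraries, against 104, 101 and 102 CPM in the untreated libraries (log2 fold change -0.62, SE 0.042, adjusted p = 1.26e-14). A further 12 complex I genes fell by 0.12 to 0.48 on the log2 scale, from NDUFB5 at -0.12 to NDUFA1 at -0.48. Of these, NDUFA2, NDUFA3 and NDUFB5 lost the call when some single libraries were left out (3, 2 and 2 of the 6).

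Among the nuclear core subunits of the electron transfer arm, 6 rose. NDUFS8, which carries iron-sulfur clusters (chr11:68030617-68036644, plus strand), had 115, 109 and 105 CPM in the MGO libraries, against 75.98, 75.6 and 75.2 CPM in the untreated libraries (log2 fold change 0.54, SE 0.039, adjusted p = 7.96e-14). NDUFS7, which holds the last iron-sulfur cluster before ubiquinone (chr19:1383527-1395589, plus strand), had 25.4, 20.02 and 20.2 CPM in the MGO libraries, against 11.9, 11.2 and 12.8 CPM in the untreated libraries (log2 fold change 0.87, SE 0.080, adjusted p = 3.41e-10). Neither gene had a library of one group within the range of the other. NDUFS3, another core subunit, had a log2 fold change of 0.28 and NDUFV2, an iron-sulfur subunit of the NADH end, one of 1.27. NDUFV2 had 25, 39 and 55 counts in the MGO libraries, against 44, 35 and 37 counts in the untreated libraries. Its change thus rests on few reads. NDUFS1 and NDUFV1, the subunit that binds NADH, rose by only 0.13 and 0.09 (adjusted p = 0.00294 and 0.0487), and both were below 0 with no filter on low counts. NDUFS1 lost its call without MGO library 3 or without MGO library 4. NDUFV1 lost it when any library other than MGO library 4 was left out, and its groups overlapped. With library size as the only scaling 4 of these 6 core genes were called higher, and with no filter 3.

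Among accessory subunits, those that rose were led by NDUFA7 and NDUFA11. NDUFA11, a membrane arm subunit (chr19:5891276-5904006, minus strand), had 24.04, 22.3 and 19.9 CPM in the MGO libraries, against 6.06, 5.33 and 5.05 CPM in the untreated libraries (log2 fold change 2.00, SE 0.084, adjusted p = 3.98e-20), a fitted ratio of 4.01. NDUFB9, also of the membrane arm (chr8:124539101-124580648, plus strand), had 75.4, 70.3 and 71.6 CPM in the MGO libraries, against 53.8, 54.4 and 55.2 CPM in the untreated libraries (log2 fold change 0.41, SE 0.042, adjusted p = 2.01e-10). In both cases all MGO libraries lay above all untreated libraries, by a wide margin for NDUFA11. NDUFA7 had 36, 29 and 34 counts in the MGO libraries, against 20, 16 and 20 counts in the untreated libraries, so that its log2 fold change of 2.06 (SE 0.25) rests on few reads. NDUFA13, also known as GRIM-19, had 30, 26 and 36 counts in the MGO libraries, against 30, 35 and 24 counts in the untreated libraries (log2 fold change 1.29, SE 0.23). The raw counts of NDUFA13 were alike in both groups, and the values separate once divided by library totals. In all, the NDUFA accessory genes had 5 that rose and 6 that fell of 13, the NDUFB genes 3 and 6 of 11, and the other accessory genes (NDUFC1, NDUFC2, NDUFS4, NDUFS5, NDUFS6 and NDUFV3) 0 and 3 of 6. The 7 complex I genes that did not pass lay between -0.16 (NDUFA9) and 0.03 (NDUFB2), and NDUFA12, whose promoter is printed above, had 81.2, 77.3 and 76.5 CPM in the MGO libraries, against 82.1, 77.4 and 81.5 CPM in the untreated libraries.

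The complex I genes with the largest rises were read at very low levels per length. The mean untreated level of the complex I genes ran from 0.239 CPM per kb of merged exons (NDUFA13) to 267 CPM per kb (NDUFS5), with a median of 21.8 CPM per kb. The 7 lowest in untreated cells were NDUFA13, NDUFA7, NDUFV2, NDUFA9, NDUFA11, NDUFS7 and NDUFB8, at 0.239 to 3.74 CPM per kb, and 0.586 to 6.03 CPM per kb in MGO cells. Of these, 6 rose and NDUFA9 did not pass. In the GENCODE release 29 annotation each of the 7 shares 10% or more of its exon bases with another annotated gene, from 10.6% for NDUFA9 to 49.1% for NDUFS7. For 6 of them at least 1 partner lies on the same strand, and for NDUFS7 all partners lie on the opposite strand. The sources used here do not say whether the counting used strand or set shared reads aside. The levels of these genes are therefore uncertain, and the part of the overlap in the changes was not tested. Of the other 30 complex I genes, 8 rose and 16 fell, the median log2 fold change being -0.12 and the highest 0.54 (NDUFS8). This grouping was chosen after the values were seen. The next in level, NDUFC2 and NDUFB2 (3.99 and 6.57 CPM per kb in untreated cells), did not pass. They share 18.1% and 35.9% of their exon bases with other genes, and had log2 fold changes of -0.04 and 0.03.

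**Figure D2:**
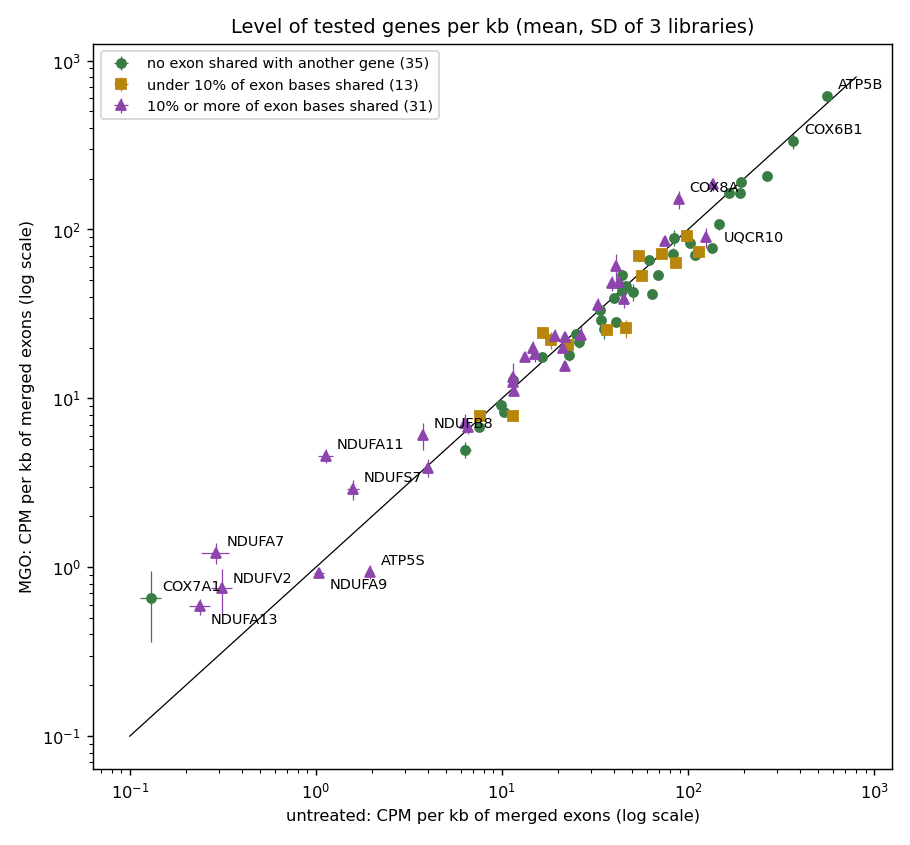
Mean level of 79 tested genes in CPM per kb of merged exons, MGO on the vertical and untreated on the horizontal axis (both log scales), with SD over 3 libraries and a line of equality; symbols mark how much of the exon length is shared with another annotated gene. NDUFA7, NDUFA11, NDUFA13 and NDUFV2 lie above the line at the low end, at untreated levels of 0.239 to 1.13 CPM per kb.

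Over all complexes, the calls were counted by how much of a gene's exons another gene shares. Of the 36 tested chain genes that share no exon base with another annotated gene, 6 rose, COX7A1 among them, and 21 fell (median log2 fold change -0.18). Of 13 that share under 10% of their exon bases, 3 rose and 8 fell (median -0.11). Of 31 that share 10% or more, 20 rose and 5 fell (median 0.19). Among all tested protein-coding genes with an annotation the shares went the same way with smaller differences. There, 36.8% of 6847 genes with no overlap rose and 49.1% fell, and 44.5% of 2415 genes with 10% or more rose and 38.3% fell, with medians of -0.15 and 0.07. Without MGO library 1 the chain genes gave 4 higher and 24 lower with no overlap and 17 higher and 8 lower with 10% or more. With no filter on low counts the last class had 12 higher and 10 lower. The classes were set after the values were seen, and no difference between them was tested.

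**Figure D3:**
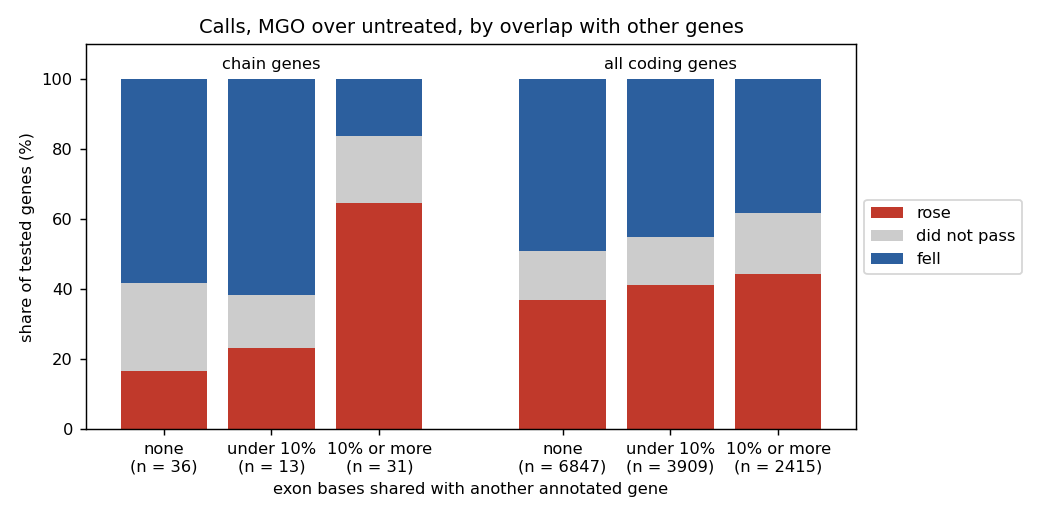
Share of tested genes (%) that rose, did not pass or fell in MGO over untreated, by the share of exon bases held in common with another annotated gene, for chain genes (left) and all protein-coding genes (right), with the number of genes under each bar. Rises make up 64.5% of the chain genes with 10% or more overlap and 16.7% of those with none, where COX7A1 is among the rises.

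Complex II, succinate dehydrogenase, is the one chain complex made from nuclear genes alone, and its 4 genes did not move together. SDHC, a membrane anchor that helps hold heme b (chr1:161314257-161375340, plus strand), had 112, 111 and 111 CPM in the MGO libraries, against 167, 161 and 162 CPM in the untreated libraries (log2 fold change -0.55, SE 0.038, adjusted p = 1.46e-14). SDHD, the other membrane anchor (chr11:112086773-112120013, plus strand), had 57.4, 51.7 and 46.7 CPM in the MGO libraries, against 43.6, 43.6 and 40.8 CPM in the untreated libraries (log2 fold change 0.28, SE 0.057, adjusted p = 8.09e-05). The groups were separate for both anchors, in opposite directions, although SDHD no longer passed with no filter on low counts (log2 fold change 0.10, adjusted p = 0.0915). SDHA, the flavoprotein that oxidizes succinate (chr5:218241-256700, plus strand), had 277, 283 and 277 CPM in the MGO libraries, against 273, 281 and 288 CPM in the untreated libraries (log2 fold change -0.01, adjusted p = 0.838). SDHB, the iron-sulfur subunit (chr1:17018722-17054170, minus strand), had 118, 116 and 109.8 CPM in the MGO libraries, against 115, 113 and 114 CPM in the untreated libraries (log2 fold change 0.01, adjusted p = 0.836). The ranges of the groups overlapped for both catalytic subunits, and with library size only or with no filter both were called lower.

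Counts of 2 SDHA pseudogenes were higher in MGO, although no test is given for these rows. Pseudogene names were left out of the 87 rows, and 34 such rows existed, 15 of them at 0 in all libraries. SDHAP1 had 316, 379 and 344 counts in the MGO libraries, against 60, 54 and 63 counts in the untreated libraries, which were read more deeply. SDHAP3 had 367, 365 and 362 counts in the MGO libraries, against 126, 121 and 105 counts in the untreated libraries. All 34 rows together equalled 0.417% to 0.454% of the chain counts in MGO and 0.0754% to 0.0820% in untreated libraries. SDHA shares 1.18% of its 100-base windows with other transcripts, SDHAP3 among them, and the assignment of reads from those windows is uncertain. NDUFV2P1 was lower, with 8, 11 and 17 counts in the MGO libraries and 84, 92 and 75 counts in the untreated libraries, and NDUFV2 shares 5.02% of its windows with it.

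In complex III, 5 genes fell and 2 rose. UQCR10, a small accessory subunit (chr22:29767369-29770413, plus strand), had 78.8, 75.5 and 71.6 CPM in the MGO libraries, against 131, 133 and 132 CPM in the untreated libraries (log2 fold change -0.81, SE 0.040, adjusted p = 4.24e-18). UQCRC2, a core subunit (chr16:21952660-21983660, plus strand), had 152, 149.8 and 139 CPM in the MGO libraries, against 214, 214 and 215 CPM in the untreated libraries (log2 fold change -0.54, SE 0.039, adjusted p = 4.33e-14). UQCRH, the hinge protein that binds cytochrome c1 (chr1:46303631-46316776, plus strand), had 163, 147 and 143 CPM in the MGO libraries, against 211, 203 and 203 CPM in the untreated libraries (log2 fold change -0.45, SE 0.043, adjusted p = 6.86e-11). No MGO library of these 3 genes reached the lowest untreated library. UQCRHL, a near copy of UQCRH (chr1:15807169-15809348, minus strand), had 12.1, 9.82 and 10.5 CPM in the MGO libraries, against 14.9, 13.3 and 13.4 CPM in the untreated libraries (log2 fold change -0.36, adjusted p = 1.60e-04), but 3.80% of its 100-base windows and 4.95% of those of UQCRH are shared between them, so the authors' counting could split reads of the pair. UQCRFS1, the Rieske iron-sulfur protein, was lower by little, with 317 ± 4.08 CPM in MGO and 341 ± 3.57 CPM in untreated cells (log2 fold change -0.11, adjusted p = 0.00530), and 7.14% of its windows are shared with a pseudogene.

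UQCRQ, another accessory subunit (chr5:132866560-132868031, plus strand), had 107, 84.8 and 76.2 CPM in the MGO libraries, against 60.95, 58.5 and 62.1 CPM in the untreated libraries (log2 fold change 0.56, SE 0.14, adjusted p = 0.0166). All 3 MGO libraries were above the untreated ones, but MGO library 1 stood well above the other two, and the call was lost without untreated library 2 (adjusted p = 0.0508). UQCRC1, the other core subunit (chr3:48599002-48610976, minus strand), had 220.0, 211 and 205 CPM in the MGO libraries, against 204, 198 and 194 CPM in the untreated libraries (log2 fold change 0.09, adjusted p = 0.0263). That small rise was lost without MGO library 1, MGO library 3, untreated library 2 or untreated library 4 (adjusted p = 0.268, 0.188, 0.115 and 0.169), and it lay below 0 under library size only and with no filter. UQCRB and UQCR11, 2 accessory subunits, did not pass, at 0.03 and -0.07 on the log2 scale. The core pair thus went unequal ways, with fitted ratios of MGO over untreated of 0.685 for UQCRC2 and 1.07 for UQCRC1.

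In complex IV, cytochrome c oxidase, 5 of 12 ubiquitous subunits fell, 3 rose and 4 did not pass. COX7C, a small membrane subunit (chr5:86617904-86620962, plus strand), had 161, 140.5 and 137 CPM in the MGO libraries, against 236, 224 and 226 CPM in the untreated libraries (log2 fold change -0.65, SE 0.047, adjusted p = 4.92e-12). COX6C, another small membrane subunit (chr8:99873200-99894062, minus strand), had 59.7, 55.4 and 50.7 CPM in the MGO libraries, against 71.9, 68.2 and 70.5 CPM in the untreated libraries (log2 fold change -0.35, SE 0.048, adjusted p = 9.64e-08). COX5B, a zinc-binding subunit on the matrix side (chr2:97646040-97648383, plus strand), had 112, 98.8 and 96.2 CPM in the MGO libraries, against 122, 117 and 119 CPM in the untreated libraries (log2 fold change -0.22, SE 0.046, adjusted p = 1.06e-04). MGO was below untreated in every library for these 3 genes. NDUFA4, first taken for a complex I subunit (chr7:10931951-10940256, minus strand), had 171, 148 and 137 CPM in the MGO libraries, against 184, 179 and 178 CPM in the untreated libraries (log2 fold change -0.25, SE 0.063, adjusted p = 0.00272). COX6B1, a subunit on the intermembrane side (chr19:35648223-35658861, plus strand), had 348, 300.5 and 285 CPM in the MGO libraries, against 340.4, 348 and 342 CPM in the untreated libraries (log2 fold change -0.14, adjusted p = 0.0364). Its groups overlapped, since MGO library 1 was within the untreated range, and the call was lost without untreated library 1 or 2 (adjusted p = 0.0576 and 0.0624).

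COX8A, the ubiquitous form of subunit 8 (chr11:63974607-63976543, plus strand), rose most among the ubiquitous subunits of complex IV. It had 87.6, 72.3 and 69.8 CPM in the MGO libraries, against 43.04, 47.2 and 45.4 CPM in the untreated libraries (log2 fold change 0.76, SE 0.078, adjusted p = 5.00e-06), and 34.5% of its exon bases are shared with AP000721.1 on the same strand. COX6A1 (chr12:120438090-120440742, plus strand) had 72.6, 62.6 and 59.6 CPM in the MGO libraries, against 52.05, 51.1 and 53.3 CPM in the untreated libraries (log2 fold change 0.31, SE 0.053, adjusted p = 9.12e-06), and 8.93% of its windows are shared with the pseudogene COX6A1P2. The groups were separate for both. COX7A2L, which helps join complexes III and IV into supercomplexes (chr2:42333546-42425088, minus strand), had 102, 98.3 and 94.1 CPM in the MGO libraries, against 92.8, 90.3 and 93.9 CPM in the untreated libraries (log2 fold change 0.09, adjusted p = 0.0434). Leaving out any 1 of the 6 libraries ended that call (adjusted p = 0.0730 to 0.454), and it lay below 0 under library size only and with no filter. COX4I1, the main form of subunit 4, had 342 ± 15.3 CPM in MGO and 349 ± 7.52 CPM in untreated cells, COX5A 232 ± 15.7 CPM in MGO and 235 ± 4.75 CPM in untreated cells and COX7B 139 ± 12.3 CPM in MGO and 134 ± 5.64 CPM in untreated cells, and neither these nor COX7A2 passed (adjusted p = 0.451, 0.708, 0.427 and 0.211).

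The tissue-restricted forms of complex IV subunits were at or near 0. COX4I2 (lung), COX6A2 (heart and muscle) and COX7B2 had 0 counts in all 6 libraries, which allows up to 0.143 to 0.166 CPM in an MGO library and 0.0627 to 0.0705 CPM in an untreated one (3 counts, counting error only). COX6B2, a testis form, had 4, 3 and 8 counts in the MGO libraries, against 5, 3 and 9 counts in the untreated libraries. COX8C had 1, 0 and 1 counts in the MGO libraries and 0, 2 and 0 counts in the untreated libraries. Neither was tested. COX7A1, the heart and muscle form of subunit 7A (chr19:36150922-36152869, minus strand), had 10, 8 and 21 counts in the MGO libraries, against 7, 6 and 5 counts in the untreated libraries (0.553, 0.429 and 0.998 CPM in the MGO libraries, against 0.151, 0.125 and 0.117 CPM in the untreated libraries). No library of the untreated group reached the filter's minimum of 0.320 CPM (before TMM scaling), so this gene entered the test only through the group in which it is higher and had to differ. Its fitted log2 fold change of 2.32, or 1.83 without MGO library 4, the library with the most of its reads, is therefore a description with no test, and it was not tested at 1 CPM or more in every library. Its level was far below that of COX7A2. COX7A2, its ubiquitous partner, had 172 ± 18.7 CPM in MGO and 162 ± 3.87 CPM in untreated cells.

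Within complex V the F1 head was split between its main subunits. ATP5A1, the alpha subunit (chr18:46080248-46104334, minus strand), had 703, 696 and 664 CPM in the MGO libraries, against 942, 941 and 924 CPM in the untreated libraries (log2 fold change -0.44, SE 0.034, adjusted p = 1.91e-13). ATP5B, the catalytic beta subunit that pairs with alpha (chr12:56638175-56646068, minus strand), had 1499.9, 1411 and 1361 CPM in the MGO libraries, against 1292, 1298 and 1293 CPM in the untreated libraries (log2 fold change 0.14, SE 0.035, adjusted p = 5.74e-04). The groups did not overlap for either gene, so alpha was lower and beta higher in each MGO library, although ATP5B was below 0 with no filter on low counts. ATP5C1, the gamma subunit of the rotating stalk (chr10:7788129-7807815, plus strand), had 203, 196 and 181 CPM in the MGO libraries, against 240.1, 239 and 239.6 CPM in the untreated libraries (log2 fold change -0.31, SE 0.040, adjusted p = 2.51e-08). ATP5D, the delta subunit (chr19:1241746-1244826, plus strand), had 131, 118 and 112 CPM in the MGO libraries, against 97.03, 101 and 99.9 CPM in the untreated libraries (log2 fold change 0.28, SE 0.045, adjusted p = 1.70e-06). ATP5E, the epsilon subunit, had a log2 fold change of 0.14 and lost its call when any of 4 libraries was left out. In all, 3 of the 5 F1 genes rose and 2 fell, and with library size only 1 rose and 2 fell.

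All 3 genes for subunit c, which make the same mature protein of the rotor ring, were lower in MGO. ATP5G3 (chr2:175176258-175184607, minus strand) had 179.7, 173 and 165 CPM in the MGO libraries, against 249, 243 and 252 CPM in the untreated libraries (log2 fold change -0.52, SE 0.038, adjusted p = 8.60e-14). ATP5G1 (chr17:48892765-48895871, plus strand) had 76.9, 62.3 and 62.2 CPM in the MGO libraries, against 91.4, 91.6 and 95.6 CPM in the untreated libraries (log2 fold change -0.47, SE 0.067, adjusted p = 2.81e-05). ATP5G2 (chr12:53632726-53677408, minus strand) had 222, 213 and 195 CPM in the MGO libraries, against 226, 221 and 229 CPM in the untreated libraries (log2 fold change -0.10, adjusted p = 0.0246). MGO was below untreated in every library for ATP5G3 and ATP5G1, while for ATP5G2 MGO library 1 was within the untreated range, and its call was lost without untreated library 4 (adjusted p = 0.0833) and under RLE or upper quartile scaling. As a share of the counts of the 3 genes, ATP5G2 took 46.7% ± 0.739 in MGO and 39.8% ± 0.0938 in untreated libraries, ATP5G3 38.4% ± 0.808 in MGO and 43.8% ± 0.147 in untreated libraries, and ATP5G1 14.9% ± 1.09 in MGO and 16.4% ± 0.225 in untreated libraries (SD, n = 3 each).

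Of the peripheral stalk, which holds the head still, 3 genes rose and 1 fell. ATP5F1, subunit b (chr1:111448864-111462773, plus strand), had 298, 289 and 281 CPM in the MGO libraries, against 255, 249 and 256 CPM in the untreated libraries (log2 fold change 0.19, SE 0.036, adjusted p = 1.71e-05). ATP5H, subunit d (chr17:75038863-75046985, minus strand), had 52.8, 51.1 and 46.7 CPM in the MGO libraries, against 72.4, 69.8 and 69.8 CPM in the untreated libraries (log2 fold change -0.50, SE 0.046, adjusted p = 2.20e-11). The groups were separate for both, in opposite directions. ATP5J (coupling factor 6) and ATP5O (the oligomycin sensitivity protein) rose by 0.19 and 0.17, ATP5O with overlapping groups and no call once MGO library 1, untreated library 1 or untreated library 2 was left out. With no filter, none of these 3 rises passed (only ATP5H of the 4 stalk genes was called).

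The small membrane subunits of complex V rose or did not pass. ATP5L, subunit g (chr11:118401154-118431496, plus strand), had 74.99, 63.9 and 62.9 CPM in the MGO libraries, against 49.6, 48.98 and 50.5 CPM in the untreated libraries (log2 fold change 0.43, SE 0.052, adjusted p = 1.90e-08). ATP5J2, subunit f (chr7:99448475-99466331, minus strand), had 57.03, 46.5 and 47.9 CPM in the MGO libraries, against 41.1, 41.2 and 42.6 CPM in the untreated libraries (log2 fold change 0.28, SE 0.057, adjusted p = 9.73e-05), and it shares exons with the readthrough gene that joins it to PTCD1. Both genes were above untreated in every MGO library. ATP5I, subunit e, had 12.7 ± 2.64 CPM in MGO and 10.8 ± 0.433 CPM in untreated cells and did not pass (adjusted p = 0.0508). ATP5L2 had 2, 0 and 1 counts in the MGO libraries and 0 counts in the untreated ones, and the readthrough row had at most 1 count in a library, so neither was tested. Outside the complexes, ATP5S, a coupling factor that is no lasting part of the enzyme (chr14:50312326-50335558, plus strand), had 11.3, 9.45 and 11.1 CPM in the MGO libraries, against 22.9, 21.8 and 21.7 CPM in the untreated libraries (log2 fold change -1.06, SE 0.072, adjusted p = 1.25e-14). ATP5SL, which despite its symbol is a complex I assembly factor, had 106 ± 3.17 CPM in MGO and 109 ± 0.300 CPM in untreated cells and did not pass (adjusted p = 0.318).

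The MGO libraries were not alike in these genes. Of the 80 tested chain genes, 69 (86.2%) had their highest MGO value in library 1, against 36.9% of all genes tested, and 59 (73.8%) ran in the order library 1, 3, 4, against 22.3% of all genes. The chain rows held 0.980%, 0.942% and 0.911% of all counts in the MGO libraries, against 1.08% to 1.09% in the untreated libraries. The median coefficient of variation of a chain gene between libraries was 7.22% in MGO and 2.12% in untreated cells, against 7.33% in MGO and 4.28% in untreated cells over all genes tested. Mitochondrially encoded RNA made up 8.17%, 6.00% and 5.34% of the counts of the MGO libraries, in the same order, against 5.42%, 4.20% and 4.28% in the untreated libraries. The part of this order in the results was not tested, and the counts without MGO library 1 are those given above.

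**Figure D4:**
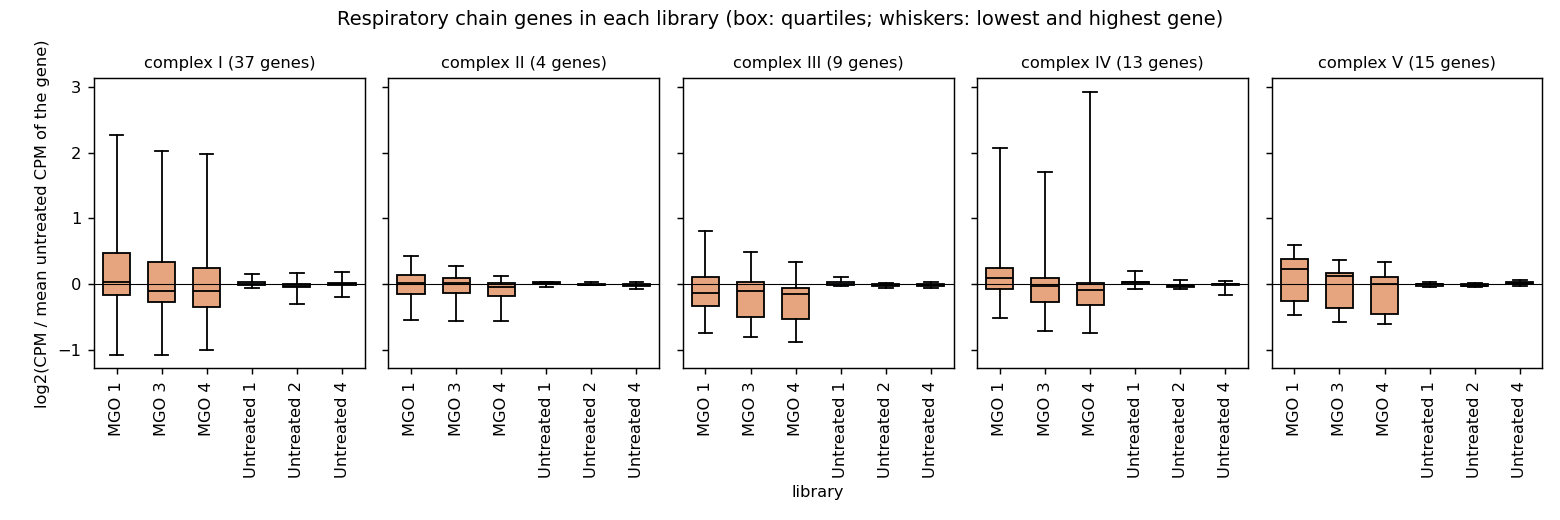
Log2 of each gene's CPM over its mean in the untreated libraries, for the tested genes of complexes I to V in each library; boxes span the quartiles with the median, and whiskers reach the lowest and highest gene. Since each gene is set against its own untreated mean, the untreated boxes lie close to 0 by construction and the MGO boxes show how far the genes' changes differ. In every complex the median of MGO library 4 lies below that of MGO library 1.

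The mitochondrial mRNAs of the chain lay above the untreated level in their means but varied between libraries. MT-ND1, a membrane subunit of complex I, had 5101, 3388 and 2894 CPM in the MGO libraries, against 2399.8, 1755 and 1787 CPM in the untreated libraries (log2 fold change 0.94, adjusted p = 0.0350), and it was the only one of 13 that passed. Its call was lost without MGO library 1, MGO library 3, untreated library 2 or untreated library 4 (adjusted p = 0.0581, 0.0744, 0.110 and 0.109). The other 12 had log2 fold changes from 0.12 (MT-ND6) to 0.72 (MT-CYB). The 13 summed to 70088, 48829 and 43197 CPM in the MGO libraries, against 45050, 34565 and 35569 CPM in the untreated libraries, so that MGO library 4 was below untreated library 1. The number that passed depended on the fit and on single libraries, with 10 higher without robust shrinkage, 10 with the replicate number as a fixed block, 9 without both libraries numbered 1, 6 by DESeq2, and 0 without MGO library 1, MGO library 3, untreated library 2 or untreated library 4.

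Assembly factors, which build the complexes but are not part of them, lay within 1.5-fold of the untreated level for 37 of 60 genes. This compares with 65 of 80 chain genes and 43.0% of all genes tested. The lists were not matched for level, and the differences were not tested. Of the 60, 24 rose and 28 fell, at a median of 0.02 on the log2 scale, and 4 rose and 7 fell by 2-fold or more. Among all genes tested 41.8% rose and 41.2% fell, 19.8% and 16.7% by 2-fold or more. These shares are the background for the counts by complex that follow. For complex I, 8 of 18 rose and 6 fell. NDUFAF7, a mitochondrial methyltransferase needed to build complex I, had 31.9, 32.05 and 28.2 CPM in the MGO libraries, against 11.04, 11.5 and 11.7 CPM in the untreated libraries (log2 fold change 1.42, SE 0.064, adjusted p = 2.67e-19). NDUFAF5, which modifies NDUFS7, had 34.3, 32.7 and 30.8 CPM in the MGO libraries, against 14.5, 13.7 and 14.4 CPM in the untreated libraries (log2 fold change 1.20, adjusted p = 3.93e-18). TMEM261, now called DMAC1, had 23.7, 22.5 and 20.7 CPM in the MGO libraries, against 55.2, 51.4 and 53.04 CPM in the untreated libraries (log2 fold change -1.26, adjusted p = 1.28e-19). The groups did not overlap in any of the 3.

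For complex II, 3 of 4 assembly factors fell. SDHAF4, which binds SDHA before it joins SDHB, had 2.71, 2.36 and 2.71 CPM in the MGO libraries, against 7.59, 6.81 and 8.41 CPM in the untreated libraries (log2 fold change -1.55, adjusted p = 1.15e-12). SDHAF3 and SDHAF1, which serve the iron-sulfur subunit, also fell (SDHAF3 had 18.004 ± 0.956 CPM in MGO and 30.8 ± 1.31 CPM in untreated cells, and SDHAF1 had 32.01 ± 0.722 CPM in MGO and 39.2 ± 1.26 CPM in untreated cells), and SDHAF2, which helps attach FAD to SDHA, rose by 0.62. For complex III, 3 of 9 rose and 6 fell. LYRM7, a chaperone of the Rieske protein, had 14.1, 10.7 and 12.6 CPM in the MGO libraries, against 29.9, 30.4 and 29.99 CPM in the untreated libraries (log2 fold change -1.27, adjusted p = 5.54e-17). BCS1L, which moves the Rieske protein into place, had 51.7, 52.7 and 48.5 CPM in the MGO libraries, against 35.8, 34.1 and 32.6 CPM in the untreated libraries (log2 fold change 0.57, adjusted p = 4.57e-12). These partners in the same step thus moved in opposite directions. C16orf91, now UQCC4, had 24.9 ± 2.27 CPM in MGO and 14.9 ± 0.222 CPM in untreated cells (log2 fold change 0.73, adjusted p = 7.41e-12).

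For complex IV, 11 of 24 assembly factors rose and 11 fell. COA5 had 8.29, 7.46 and 7.17 CPM in the MGO libraries, against 23.9, 23.2 and 23.3 CPM in the untreated libraries (log2 fold change -1.62, adjusted p = 4.18e-19), and CCDC56, now COA3, which binds newly made COX1, had 45.4, 39.6 and 38.9 CPM in the MGO libraries, against 91.5, 89.7 and 89.9 CPM in the untreated libraries (log2 fold change -1.13, adjusted p = 5.45e-20). SCO1, a copper chaperone, had 124, 121 and 123 CPM in the MGO libraries, against 69.6, 68.5 and 71.8 CPM in the untreated libraries (log2 fold change 0.81, adjusted p = 8.07e-19). In complex V, ATPAF1, which binds the beta subunit during assembly, had 118, 117 and 114 CPM in the MGO libraries, against 187, 178 and 180.2 CPM in the untreated libraries (log2 fold change -0.64, adjusted p = 4.88e-16), while ATP5B itself was higher. TMEM242, needed for the c ring, had 38.1 ± 1.51 CPM in MGO and 29.7 ± 1.55 CPM in untreated cells (log2 fold change 0.36, adjusted p = 3.79e-07). C7orf55, now FMC1, had 1.37 ± 0.307 CPM in MGO and 1.93 ± 0.0753 CPM in untreated cells (log2 fold change -0.48, adjusted p = 0.0214), which was lost without MGO library 1 (adjusted p = 0.115) or untreated library 2 (0.0518). ATPAF2 and TMEM70 did not pass.

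**Figure D5:**
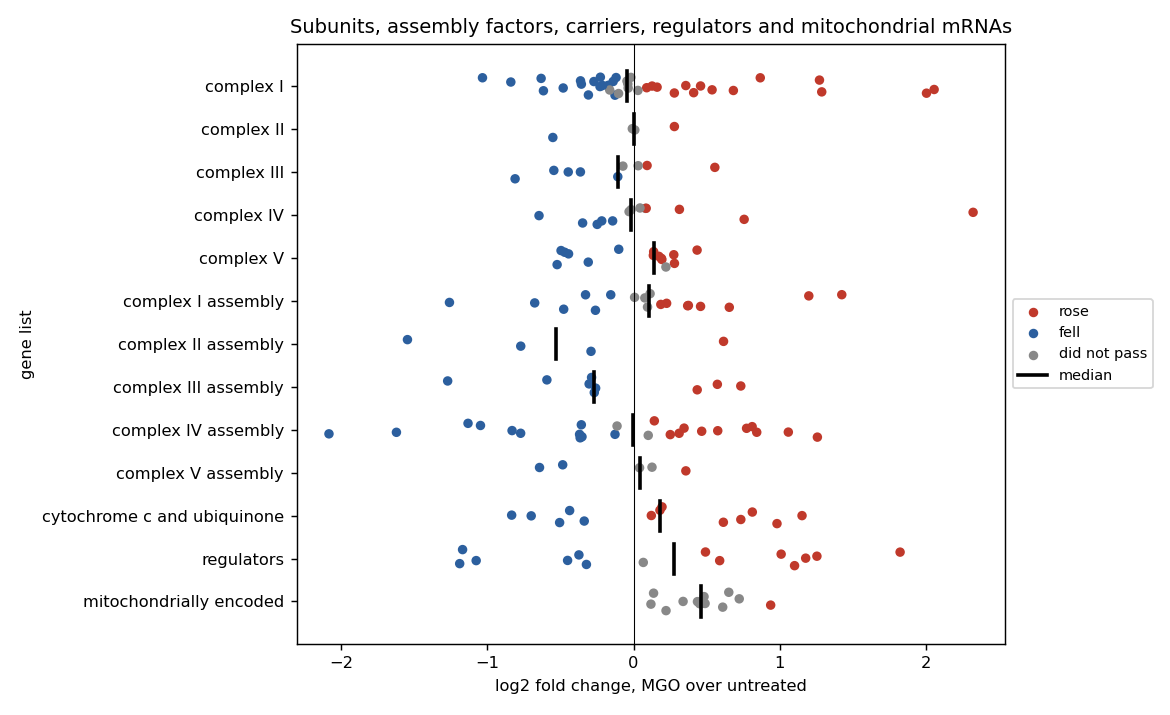
Log2 fold change, MGO over untreated, of each tested gene (points) in the 5 complexes, their assembly factors, the cytochrome c and ubiquinone genes, the regulators and the mitochondrially encoded subunits, with the median of each list as a bar. Of the assembly factors, 37 of 60 lie within 1.5-fold of untreated, against 43.0% of all genes tested. All 13 mitochondrially encoded genes lie above 0, of which 1 passed.

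Cytochrome c and the lyase that completes it rose, and the enzymes that make ubiquinone were divided. CYCS, cytochrome c, had 504, 487 and 475 CPM in the MGO libraries, against 285, 273 and 277 CPM in the untreated libraries (log2 fold change 0.81, SE 0.036, adjusted p = 1.56e-19). HCCS, the lyase that attaches its heme, had 94.1, 93.2 and 95.5 CPM in the MGO libraries, against 43.1, 41.2 and 42.9 CPM in the untreated libraries (log2 fold change 1.15, SE 0.041, adjusted p = 6.36e-22). ADCK3, now COQ8A, a kinase-like protein of ubiquinone synthesis, had 57.2, 53.8 and 53.9 CPM in the MGO libraries, against 98.5, 96.2 and 99.1 CPM in the untreated libraries (log2 fold change -0.83, SE 0.041, adjusted p = 3.09e-18). No library of one group fell in the range of the other for these 3. Over the list of 13, 8 rose and 5 fell (PDSS2, COQ2, COQ3, COQ7 and ADCK3), beside 41.8% and 41.2% of all genes tested. With library size only, and also with no filter, 5 were higher and 5 lower.

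Of 14 regulators of chain genes or of mitochondrial DNA, 7 rose and 6 fell, 8 of them by 2-fold or more. For all genes tested the shares were 41.8% higher and 41.2% lower, with 19.8% and 16.7% at 2-fold or more. PPRC1, a coactivator of the PGC-1 family, had 234, 229 and 241 CPM in the MGO libraries, against 61.97, 68.6 and 68.4 CPM in the untreated libraries (log2 fold change 1.82, SE 0.042, adjusted p = 1.15e-26). YY1 had 414, 414 and 409 CPM in the MGO libraries, against 204, 205 and 206 CPM in the untreated libraries (log2 fold change 1.01, SE 0.035, adjusted p = 2.42e-22). TFB2M, which starts transcription of mitochondrial DNA together with TFAM, had 24.5, 26.5 and 26.4 CPM in the MGO libraries, against 10.9, 11.1 and 10.4 CPM in the untreated libraries (log2 fold change 1.25, SE 0.064, adjusted p = 7.62e-18). In each case all MGO libraries lay above all untreated ones. NRF1, whose motif is printed above, had 24.7 ± 1.28 CPM in MGO and 33.8 ± 0.683 CPM in untreated cells (log2 fold change -0.45, adjusted p = 8.17e-09), and GABPA did not pass at 91.7 ± 6.60 CPM in MGO and 87.6 ± 2.94 CPM in untreated cells (adjusted p = 0.160). The other PGC-1 family members fell, PPARGC1A by a log2 fold change of -1.08 and PPARGC1B by -1.19. Among tested genes of the 60 matched promoters, the median log2 fold change was -0.07 with the NRF1 motif and -0.02 without it. It was 0.01 with the ETS motif and -0.04 without it, and 0.09 with the YY1 motif and -0.04 without it. These differences were not tested.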

How the data were processed

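The members and gene lists were chosen with earlier results of these data known. Poly(A) RNA from GLO1 knockout HEK293T cells was sequenced in 3 MGO and 3 untreated libraries. Raw counts per gene symbol were deposited by the authors for each library; per the submitters' processing notes STAR 2.4, HTSeq 0.9.1, Trim Galore, Picard and hg38 were used, while the counting annotation and strand setting were not given in the sources used here. Counts were fitted with edgeR 4.0.16 in R 4.3.3 (limma 3.58.1). Genes passing filterByExpr were kept, scaled by TMM, fitted by the robust quasi-likelihood model with 1 term for treatment and 4 residual degrees of freedom, and adjusted by Benjamini-Hochberg over 17415 genes at 0.05. The SE is the log2 fold change divided by the square root of F. The code was tested on simulated counts. Alternatives were other scalings and filters, leaving out each library, a replicate block, limma voom, DESeq2 1.42.0, a fold test and thinning. Exon lengths, overlaps and coordinates are from GENCODE release 29 (GRCh38), matched by symbol for all 87 rows. Promoters are from RefSeq. Named in full were up to 4 called genes with the smallest p per complex and direction, isoform families, NDUFA4, SDHA to SDHD, and up to 3 called genes of each other list; 1 gene that this rule names is not reported here. Other genes named, among them ATP5B, NDUFA7, NDUFA13, NDUFV2, UQCRFS1, ATP5S and the pseudogenes, were picked after their values were seen. The smallest exact p for 3 against 3 libraries is 0.10, so no permutation test could pass.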

Additional observations from a re-analysis of the deposited data

How the results depend on the processing

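Among the values of single genes, 1767 of 2034 comparisons with an alternative kept direction and side of the threshold, 161 lost the threshold, 44 gained it and 62 changed sign; causes were not tested. The number of chain genes called higher was 15 with no filter on low counts and 7, COX7A1 among them, against a fold of 1.5, where 4 were lower. Leaving out each library in turn gave 23 to 28 higher and 31 to 41 lower, with median log2 fold changes of -0.15 to -0.046 for complex I, -0.038 to 0.0014 for complex II, -0.15 to -0.11 for complex III, -0.09 to -0.01 for complex IV and 0.04 to 0.16 for complex V. The complex I median was -0.15 with library size only and -0.23 with no filter. That of complex II was 0.065 at 1 CPM or more in every library, -0.11 with library size only, -0.18 with no filter and 0.039 after the untreated counts were thinned to the mean MGO total. With no filter complex IV was at -0.20 and complex V changed sign to -0.045.

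Among called genes, sign changes were seen with 2 settings, in log2 fold change. With no filter on low counts they gave ATP5B -0.045, ATP5E -0.047, ATP5O -0.0091, COX7A2L -0.096, NDUFA10 -0.021, NDUFS1 -0.055, NDUFV1 -0.093 and UQCRC1 -0.090, against 0.087 to 0.17 with the filter. With library size only they gave COX7A2L -0.020, NDUFV1 -0.017 and UQCRC1 -0.014. Genes that did not pass and changed sign lay between -0.045 and 0.081. At 1 CPM or more in every library they gave ATP5SL 0.024, COX4I1 0.035, COX5A 0.048, NDUFA12 0.028, NDUFB10 0.047, NDUFC2 0.026, NDUFS4 0.020 and SDHA 0.057. After thinning they gave ATP5SL 0.0073, COX4I1 0.019, COX5A 0.018, NDUFA12 0.0045, NDUFB10 0.044, NDUFC2 0.037 and SDHA 0.033. With library size only they gave COX7A2 -0.026, COX7B -0.063, NDUFB2 -0.076, SDHB -0.097 and UQCRB -0.075. With no filter they gave COX7A2 -0.10, COX7B -0.14, NDUFB2 -0.15, SDHB -0.17 and UQCRB -0.15. Upper quartile scaling gave COX5A 0.0025, NDUFB10 0.0014 and SDHA 0.011. RLE scaling gave COX5A 0.0052, NDUFB10 0.0041 and SDHA 0.014. DESeq2 gave COX5A 0.0051, NDUFB10 0.0040 and SDHA 0.014. Without both libraries numbered 1 they gave COX7A2 -0.0062, COX7B -0.030, NDUFB2 -0.043, SDHB -0.015 and UQCRB -0.022. Over single libraries left out the ranges were COX7A2 -0.037 to 0.10, COX7B -0.052 to 0.064, NDUFB2 -0.068 to 0.040, NDUFC2 -0.16 to 0.00043, SDHA -0.046 to 0.0037, SDHB -0.036 to 0.0074 and UQCRB -0.035 to 0.037.

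Replicate numbers 1 and 4 occur in both groups. Over all genes tested, same-numbered libraries did not deviate together (correlations 0.0204 and -0.0078), and the main fit did not pair them. Yet library 1 held the most mitochondrially encoded RNA in both groups (8.17% of counts in MGO and 5.42% in untreated). Of the chain genes, 43.75% had their highest untreated value in library 1, against 34.7% of all genes. Whether the numbers mark pairs is not in the labels, and these correlations do not settle it. With the replicate number as a fixed block 22 chain genes were higher and 27 lower, 14 calls fewer, and SDHB was at -0.0073 and NDUFC2 at 0.041; with a random block 28 were higher and 34 lower. Few reads limit the lowest genes in both groups: NDUFA7 had 29 to 36 counts in MGO and 16 to 20 counts in untreated libraries, and COX7A1 had 8 to 21 counts in MGO and 5 to 7 counts in untreated libraries.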
